A study of Mus musculus with 17 samples.

Results

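Zp3 encodes a glycoprotein of the zona pellucida, the extracellular coat of the oocyte, and was taken as the row of the deposited count table that carries this gene name, 1 of 2615 genes listed. The zona is built from filaments of secreted glycoproteins that share a ZP domain, and in the mouse these are ZP1, ZP2 and ZP3. ZP2 and ZP3 form the filaments, ZP1 cross-links them, and female mice without ZP3 make no zona and are infertile. The genes are transcribed in the growing oocyte, where the factor FIGLA acts on E-boxes in their promoters, and their transcripts decline once growth ends. Ehmt2, also called G9a, encodes a histone methyltransferase that places mono- and dimethylation on lysine 9 of histone H3.

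The libraries were made from oocytes of 8-week-old C57BL/6J females that the labels of both groups describe as MII oocytes, the ovulated stage arrested in the second meiotic metaphase. The study's text, however, describes superovulated oocytes of the Ehmt2GKO genotype as often held at metaphase of the first meiosis, so the label may not give the stage of that group, and genotype and meiotic stage cannot be told apart in these libraries. The control group comprised 3 RNA libraries from Ehmt2(flox/flox) females, numbered 1, 2 and 6. The Ehmt2GKO group comprised 3 RNA libraries, numbered 3, 4 and 5, from Ehmt2(flox/flox) females that also carried Gdf9-Cre, and the deletion removes exons 4 to 20 of Ehmt2. Both groups therefore carried the floxed alleles, and only the Ehmt2GKO group carried the Cre. The Gdf9 promoter drives Cre in oocytes from the primordial follicle onwards, before the growth phase in which zona genes are transcribed. The oocytes were collected after superovulation, and how many oocytes or females entered each library is not given in the sources used here, so P values measure only the spread between these libraries, which may be technical. The series holds 17 samples, of which the other 11 are reduced representation bisulfite libraries not analysed here.

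The table held 4060653 to 4258350 reads per library over the genes it lists. All 2615 listed genes had an adjusted P value of the authors under 0.05, so a difference between the groups was already a condition for being listed, and the tests below describe the size and spread of differences rather than providing independent evidence of them. Of 12 oocyte markers checked, 4 were listed, namely Zp1, Zp2, Zp3 and Nlrp5. None of 11 blood and immune cell markers was listed. Since listing required a difference between the groups, an unlisted marker is not shown to be absent from the libraries. Of 27 cumulus and granulosa cell markers, 2 were listed, and their summed reads were 335 to 374 in the control libraries and 247 to 332 in the Ehmt2GKO libraries. Ehmt2 itself was not among the genes analysed here, so the deletion could not be checked in these counts.

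Zp3 (ENSMUSG00000004948) lies on the plus strand of chromosome 5 at chr5:135980099-135988624 in GRCm38, with 8 exons, a transcript of 1323 nucleotides and a coding sequence of 1272 nucleotides in GENCODE vM21. No other annotated gene overlaps it and 0 near-identical copies were found among the annotated transcripts, so no other locus was found with which its reads could be divided. The promoter is printed because it carries the letters of the E-boxes and TATA-like motifs through which zona genes are known to be read. The 244 bases that end just before the annotated start, chr5:135979855-135980098 on the plus strand of GRCm38.p6 as given by RefSeq, read as follows, with CANNTG and TATAA in capitals.
Zp3 promoter: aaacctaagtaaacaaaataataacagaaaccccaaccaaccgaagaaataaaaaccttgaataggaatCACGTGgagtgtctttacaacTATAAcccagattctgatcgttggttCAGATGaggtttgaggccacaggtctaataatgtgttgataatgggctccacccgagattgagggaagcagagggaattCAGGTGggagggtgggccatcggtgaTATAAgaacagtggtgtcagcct

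The window held 3 matches to CANNTG, the E-box, searched on both strands, which this palindromic pattern makes equivalent. Counted back from the annotated start, CACGTG began at -175, CAGATG at -128 and CAGGTG at -49. TATAA, searched on the plus strand of the gene, was found at -154 and at -23. Over 32851 promoters of the same length, 65.35% held at least one CANNTG, 11.59% held as many as Zp3, 16.79% held CAGGTG and 15.63% held TATAA. A match describes letters in this window and does not show that a factor binds there. The table of promoters used here matched Zp3 but not Zp1 or Zp2.

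Zp3 was lower in Ehmt2GKO oocytes, and the 3 libraries of each group lay close together. The control libraries 1, 2 and 6 held 6915, 6957 and 6951 reads of Zp3. The Ehmt2GKO libraries 3, 4 and 5 held 3653, 3192 and 3263 reads. Every control library thus stood far above every Ehmt2GKO library. After division by median-ratio size factors, the normalized counts were 6785, 6725 and 6721 in control and 3583, 3393 and 3425 in Ehmt2GKO. The group means were 6744 ± 36.1 and 3467 ± 101 (SD, n = 3), so that the Ehmt2GKO mean was 51.4% of control, just short of a 2-fold fall. With TMM factors, the scaling of the fit below, it was 48.2% of control.

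The log2 fold change of Zp3 from edgeR's quasi-likelihood test with TMM scaling was -1.05 with a standard error of 0.0966 (Benjamini-Hochberg adjusted P = 1.58e-07). This passed the limits used here for calling a gene changed, a fold over 2 and an adjusted P under 0.01. Of 2516 genes tested, 16.9% were called lower in Ehmt2GKO by the same limits, and 46.9% had every control library above every Ehmt2GKO library. Zp3 sat next to the 2-fold limit, and under relative log expression scaling the fold change was -0.96, under upper-quartile scaling -0.97 and under DESeq2 -0.96, none of which passes 2-fold. The exact 2-sided permutation test of the normalized counts gave P = 0.10, the smallest value that 3 against 3 libraries allow. In bulk libraries of this kind, fewer cells holding a transcript and less of it per cell cannot be told apart.

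Zp3 was one of the more abundant of the listed genes, and it moved down in rank. By reads it stood between place 109 and place 113 of the 2615 in the control libraries, and between place 239 and place 273 in the Ehmt2GKO libraries. It took 0.167% ± 0.0033 of the table's reads in control and 0.0800% ± 0.0062 in Ehmt2GKO (SD, n = 3). Ranked by the mean normalized count over all 6 libraries it was at place 158, and ranked per kb of exon at place 55. The ranks refer only to listed genes.

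Zp1 and Zp2 were both listed too, and both had lower fitted levels in Ehmt2GKO, with control libraries spread much more widely than those of Zp3. Over all libraries both fitted falls were smaller than that of Zp3. For Zp1 this order was turned without control replicate 1, at -1.08 against -1.05 for Zp3. Zp1 (ENSMUSG00000024734, chr19:10914287-10920632, minus strand, 12 exons) encodes the component that cross-links the zona filaments. Its reads were 2164, 4296 and 3343 in control and 1771, 1880 and 1763 in Ehmt2GKO. Control library 1 held about as much Zp1 as the Ehmt2GKO libraries, with 2123 normalized counts against a highest Ehmt2GKO value of 1999, so the groups did not overlap by a narrow margin. The normalized means were 3169 ± 1016 and 1862 ± 131 (SD, n = 3), with a log2 fold change of -0.86 and an edgeR adjusted P of 0.000238. Zp1 was therefore not called at 2-fold. Without control replicate 1 it was called, at -1.08, and without control replicate 2 the fold change was -0.62.

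Zp2 (ENSMUSG00000030911, chr7:120126772-120145291, minus strand, 18 exons) encodes the zona component to which sperm bind and which is cleaved after fertilization. Its reads were 3510, 5235 and 4126 in control and 3482, 3355 and 2935 in Ehmt2GKO. The groups overlapped, because normalized control library 1 at 3444 lay below the highest Ehmt2GKO library at 3566. The normalized means were 4165 ± 822 and 3354 ± 248 (SD, n = 3). The log2 fold change was -0.40 with an edgeR adjusted P of 0.00608, and the exact permutation P was 0.20. Without control replicate 2 the fold change of Zp2 was -0.24, and the adjusted P rose to 0.0642.

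**Figure D1:**
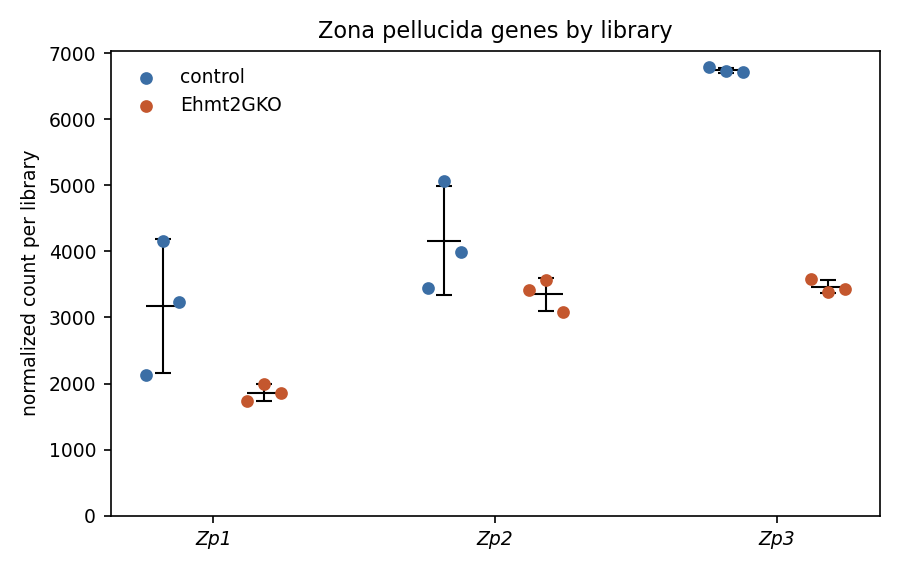
Normalized counts of Zp1, Zp2 and Zp3 in each library. Points are libraries, horizontal ticks are group means and bars are SD (n = 3 per group). The control points of Zp3 lie between 6721 and 6785, whereas those of Zp1 and Zp2 are spread widely, and the groups of Zp2 overlap.

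Ratios taken within a library need no scaling between libraries, so they compare the zona genes directly. The ratio of Zp3 to Zp2 reads was 1.97, 1.33 and 1.68 in control libraries 1, 2 and 6. It was 1.05, 0.951 and 1.11 in Ehmt2GKO libraries 3, 4 and 5. The ratio was thus higher in every control library than in any Ehmt2GKO library. In Ehmt2GKO library 4, Zp3 had fewer reads than Zp2. The means were 1.66 ± 0.321 and 1.04 ± 0.0808, a log2 difference of -0.66 (exact permutation P = 0.10, the smallest possible, n = 3).

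The ratio of Zp3 to Zp1 showed no such separation. It was 3.20, 1.62 and 2.08 in control and 2.06, 1.70 and 1.85 in Ehmt2GKO (exact permutation P = 0.60, n = 3). The ratio of Zp1 to Zp2 was 0.749 ± 0.115 in control and 0.557 ± 0.0462 in Ehmt2GKO, with no overlap (exact permutation P = 0.10, n = 3). The 4 zona ratios computed formed one family, and with the smallest possible P at 0.10 none could pass a threshold of 0.05 before or after adjustment. Within each library, Zp3 made up 48.4% ± 6.37 of the reads on the 3 zona genes in control and 40.0% ± 1.804 in Ehmt2GKO, while Zp2 made up 29.4% ± 2.06 and 38.6% ± 1.54. The 3 genes together took 0.349% ± 0.0438 of the table's reads in control and 0.200% ± 0.0127 in Ehmt2GKO.

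**Figure D2:**
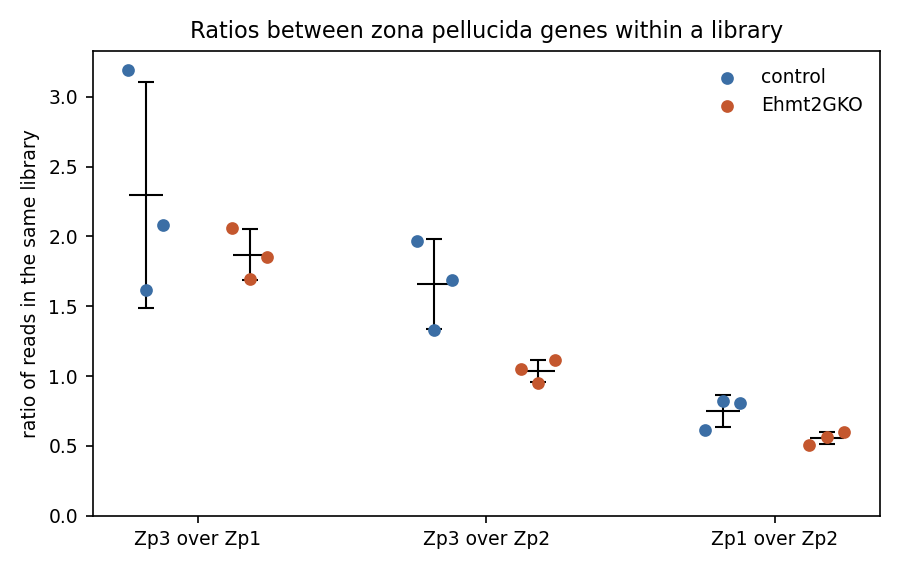
Ratios of reads between zona pellucida genes in the same library. Points are libraries, ticks are means and bars are SD (n = 3 per group). Zp3 over Zp2 separates the groups (means 1.66 and 1.04), and Zp3 over Zp1 overlaps between them.

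Per kb of exon, which allows levels of different genes to be set side by side, Zp3 was the most abundant of the zona genes in both groups. Its level was 5097 normalized counts per kb in control and 2621 in Ehmt2GKO. Zp1 had 1600 and 940, and Zp2 had 1529 and 1231 normalized counts per kb. On this scale, Zp1 and Zp2 did not differ from each other in control beyond the spread of their libraries, with no test run. The scale divides by all annotated exon bases, 2724 for Zp2 and 1981 for Zp1. Their longest coding transcripts have 2221 and 1963 bases, so the order of Zp1 and Zp2 depends on the length used.

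The fall of Zp3 was then set beside the listed genes of similar abundance, defined as those whose mean normalized count over all 6 libraries lay within 2-fold of that of Zp3. There were 279 of these, with means from 2555 to 10191. In this range 126 genes were lower and 153 higher in Ehmt2GKO, and 110 had every control library above every Ehmt2GKO library, which is 39.4% against 46.9% of all tested genes. Only 16 of the 279 were called, 10 lower and 6 higher, or 5.73%, against 35.7% of all tested genes in either direction. The median size of the log2 fold change was 0.47 in this range and 0.76 over all other tested genes. Genes with many reads can pass a limit on P with smaller changes than genes with few reads. These differences from all tested genes may therefore reflect how genes came to be listed, which was not tested. A fall of the size of that of Zp3 was uncommon among listed genes of its abundance, by description and with no test. When abundance was instead matched per kb of exon, 12 of 97 genes were called, or 12.4%, 6 of them lower, and 5 had a lower fold change than Zp3.

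In this range 9 genes had a lower log2 fold change than Zp3. The 3 with the largest falls were Tmem230 at -1.75, Cfl1 at -1.52 and Gm13103 at -1.502. Tmem230 encodes a membrane protein of vesicles and Cfl1 encodes cofilin, which severs actin filaments. Tmem230 had 5257, 4698 and 5196 reads in control and 1458, 1472 and 1593 in Ehmt2GKO. Cfl1 had 10754, 9399 and 7772 reads in control and 4021, 2803 and 2989 in Ehmt2GKO. In both the groups stood well apart.

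The genes ranked next to Zp3 by mean normalized count did not share its change. Next above were Gnpda2, an enzyme of glucosamine 6-phosphate metabolism, at a log2 fold change of 0.70, the organic anion transporter gene Slco3a1 at 0.35 and the inositol polyphosphate kinase gene Ipmk at 0.44. Next below were the formin gene Fhod3 at -0.26, 1190002N15Rik at 0.39 and Parl, a mitochondrial rhomboid protease, at -0.43. All 6 lay within 2-fold, and Fhod3 had an edgeR adjusted P of 0.0164, above the limit of 0.01.

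The replicate spread of Zp3 was small for its abundance, although how small depended on the scaling. With median-ratio factors the coefficient of variation was 0.535% in control, below the 1.20% that counting error alone would give for these reads, and 2.93% in Ehmt2GKO, above the 1.72% of counting error. The genes of similar abundance had medians of 8.23% and 8.45%. None of the 279 had a smaller coefficient than Zp3 in control and 22 had a smaller one in Ehmt2GKO. With TMM factors the coefficients of Zp3 were 2.15% and 5.15%, and 14 and 62 of the 279 genes varied less. With library size alone they were 1.99% and 7.72%, and 12 and 144 genes varied less. At most 14 of the 279 genes thus varied less than Zp3 in control under each of these scalings, whereas that in Ehmt2GKO did not stand out with library size alone.

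With median-ratio factors, the SD of log2 normalized counts within groups, pooled over both, was 0.0301 for Zp3. Its median over the genes of similar abundance was 0.130. Only Nek1, at 0.0269, and AC159282.1, at 0.0287, had a smaller one, and Nit2 followed at 0.0357. This SD was taken with median-ratio factors only. Under the other 2 scalings above, more genes had a smaller coefficient of variation than Zp3 in each group, so this rank may depend on the scaling. Nek1 and Nit2 are described next. Nek1 encodes a kinase linked to cilia and the DNA damage response, and its reads were 4160, 4174 and 4139 in control and 2845, 2756 and 2727 in Ehmt2GKO. Its log2 fold change was -0.59. The fold changes of AC159282.1 and Nit2, which encodes an omega-amidase, were -0.32 and -0.46, so none of these 3 tight genes was called. The standard error of the fitted change did not set Zp3 apart to the same degree. It was 0.0966 for Zp3 against a median of 0.105, and 17 of the 279 genes had a smaller one. The fit used TMM rather than median-ratio factors, and edgeR shares the estimate of spread between genes. The part of either in this difference was not tested.

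**Figure D3:**
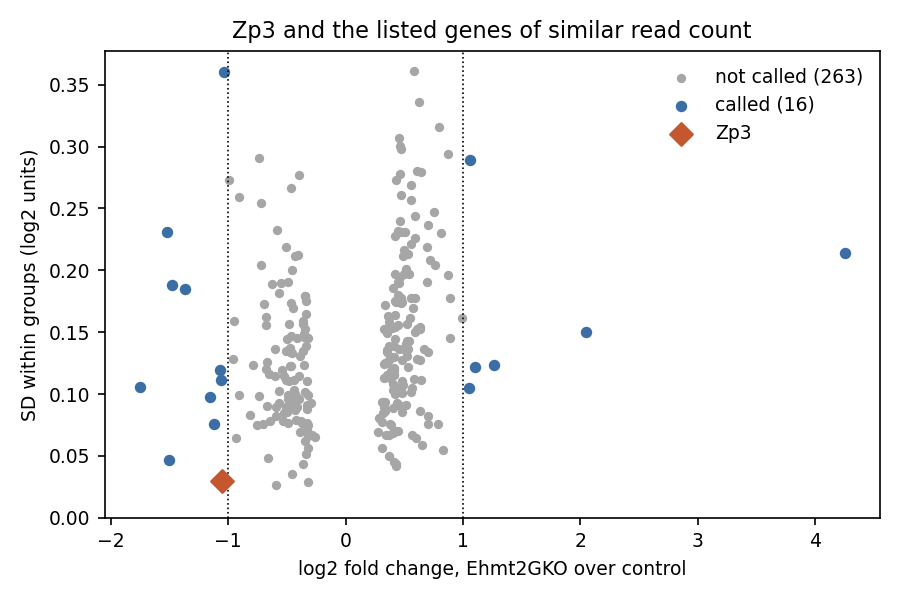
Each point is a listed gene of similar mean normalized count (279 genes). Its position gives the log2 fold change (TMM scaling) and the pooled SD of log2 normalized counts within groups (median-ratio factors). Dotted lines mark 2-fold, and the empty band around 0 reflects that only genes with a difference were listed. Zp3 (diamond, -1.05 and 0.0301) lies just past 2-fold at the bottom of the plot.

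The genes whose pattern over the 6 libraries was nearest to that of Zp3 were found by the root mean square distance between log2 normalized counts centred per gene, among the genes of similar abundance. They were Dync1i2 (0.0782), AC118476.5 (0.0788), 1110059G10Rik (0.0910), Ccdc115 (0.0978) and Psrc1 (0.104). Dync1i2 encodes an intermediate chain of cytoplasmic dynein, Ccdc115 a factor of vacuolar ATPase assembly and Psrc1 a microtubule-binding protein. The reads of Dync1i2 were 5358, 5942 and 6005 in control and 3296, 2853 and 2967 in Ehmt2GKO. Its log2 fold change was -0.93, short of 2-fold, and the other 4 lay between -1.15 for Ccdc115 and -1.06 for Psrc1 and were called. The calls of 1110059G10Rik and Psrc1 were lost under the same scalings as that of Zp3 (-0.98 to -0.97), and that of 1110059G10Rik also without control replicate 1 (-0.99), and the test against 2-fold ended all 4 calls (edgeR adjusted P from 0.107 to 0.386). Likeness over 6 libraries that form 2 groups is mostly likeness of the group difference.

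**Figure D4:**
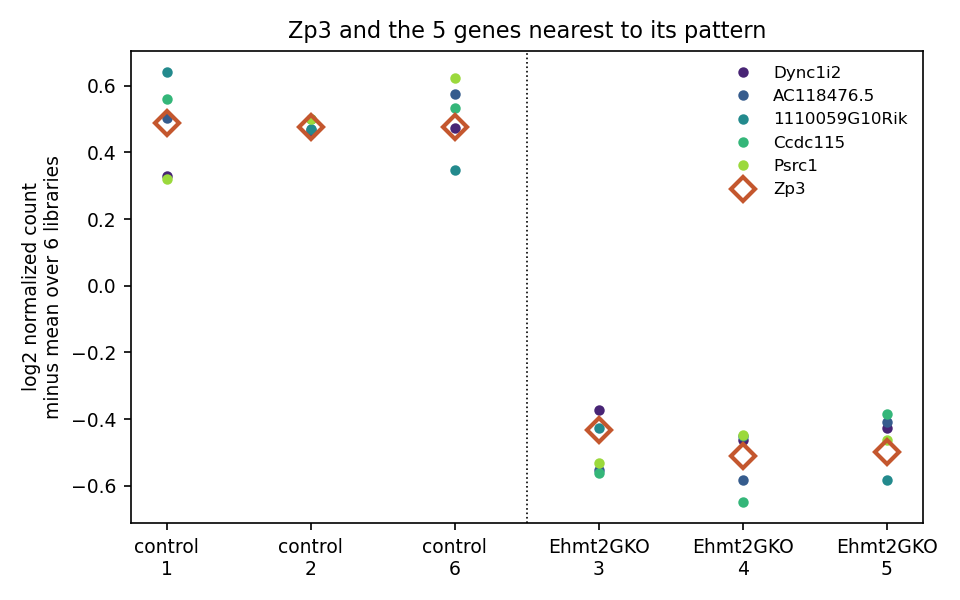
Log2 normalized counts of Zp3 (open diamonds) and of the 5 genes nearest to its pattern (dots), each centred on its own mean over the 6 libraries. The dotted line parts control (left) from Ehmt2GKO (right), and all 6 genes lie above their mean in every control library and below it in every Ehmt2GKO library.

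Among ZP-domain proteins, 4 of 15 were listed, Zp3 among them. The other 3, Zp1, Zp2 and Umodl1, all passed as lower at an edgeR adjusted P of 0.01, as did 49.5% of all tested genes. For Zp2 this pass was lost under several alternatives, as given above. Of these 3 genes, 1 was called lower, against 16.9% of all tested genes. Umodl1 encodes an uromodulin-like membrane protein. Umodl1 had 742, 759 and 921 reads in control and 509, 351 and 356 in Ehmt2GKO. Its log2 fold change was -1.003 with a standard error of 0.147 (edgeR adjusted P = 2.04e-05), on the 2-fold limit. Its call was lost under the scalings that lost that of Zp3 (-0.91 to -0.92), with a minimum of 10 counts in every library (-0.96) and without control replicate 6 (-0.92), Ehmt2GKO replicate 4 (-0.93) or Ehmt2GKO replicate 5 (-0.92), and in the test against 2-fold.

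The zona is met by sperm before the egg surface, and 5 of 18 genes of the egg surface, cortical granules and egg activation were listed, 2 lower and 3 higher. Cd9, the egg tetraspanin needed for sperm fusion, had 721, 1069 and 959 reads in control and 328, 361 and 370 in Ehmt2GKO, and it fell by 1.38 on the log2 scale (edgeR adjusted P = 6.68e-07). It was the one called gene of the 5 listed, against 35.7% of all tested genes called in either direction. Its call was lost when the change was tested against 2-fold (edgeR adjusted P = 0.0161). Rab27a, a GTPase of secretory granules, was at -0.53. Padi6, a maternal protein of the egg lattices, was at 0.48, the calcium channel gene Orai1 at 0.93 and Mos, the kinase that holds the metaphase arrest, at 0.51. Orai1, with 50 to 70 reads in control and 73, 99 and 171 in Ehmt2GKO, rested on single libraries. It was at 0.53 without Ehmt2GKO replicate 5 (edgeR adjusted P = 0.0961) and at 1.17, and called, without Ehmt2GKO replicate 3. It was also called without control replicate 6 (1.04) and under relative log expression, upper-quartile and DESeq2 scaling (1.01 to 1.04), and without control replicate 1 it was at 0.83 (edgeR adjusted P = 0.0313).

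Zona proteins pass through the secretory pathway before they are cleaved and released, and 4 of 27 genes of protein processing and secretion were listed, 2 lower and 2 higher. Sec61g, a subunit of the translocon through which secreted proteins enter the endoplasmic reticulum, had 462, 452 and 338 reads in control and 198, 127 and 113 in Ehmt2GKO. It fell by 1.53 on the log2 scale (edgeR adjusted P = 7.65e-06) and was the one called gene of the 4, against 35.7% of all tested genes. This call too was lost in the test against 2-fold (edgeR adjusted P = 0.0161). The chaperone gene Calr was at -0.38, the proprotein convertase gene Pcsk6 at 0.70 and Ssr3, a translocon-associated subunit, at 0.34.

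Factors that act in the growing oocyte, in which the zona genes are transcribed, were taken next. Of 19 oocyte transcription factors, 2 were listed and both were higher, Lhx8 at 0.74 and Sohlh2 at 1.18. Of these only Sohlh2 was called, against 35.7% of all tested genes in either direction. Sohlh2 had 488, 655 and 741 reads in control and 1259, 1464 and 1544 in Ehmt2GKO, the opposite direction from Zp3, with no overlap between groups. Its call was lost in the test against 2-fold (edgeR adjusted P = 0.152). Figla, one of the oocyte markers checked, was not among the listed genes, so its level could not be read. Of 19 oocyte growth and secreted factors, the signalling ligand gene Fgf8 was at 1.12 and called, and Oog1 was at -0.51. Fgf8 had only 26 to 56 reads in control and 63 to 119 in Ehmt2GKO, and its call was lost without control replicate 1 (0.90), control replicate 6 (1.03) or Ehmt2GKO replicate 5 (0.81), in the test against 2-fold and when P was adjusted over 20000 genes.

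Maternal effect genes, whose proteins are stored for the embryo, had 6 of 28 members listed, 4 lower and 2 higher, with none called at 2-fold. The lower ones were Nlrp2 at -0.72, Nlrp4e at -0.67, Nlrp9c at -0.50 and Tle6 at -0.34, and Nlrp5 was at 0.42 beside Padi6 above. Of 43 genes of maternal mRNA storage and decay, 3 were listed, all higher and none called. These were Ythdf2, a reader of methylated mRNA, at 0.66, the RNA-binding protein gene Igf2bp3 at 0.63 and the exonuclease gene Dis3l2 at 0.81. Dis3l2 was called at 1.08 without control replicate 6, and missed the adjusted P of 0.01 without control replicate 2 (0.60, edgeR adjusted P = 0.0236) or Ehmt2GKO replicate 5 (0.66, edgeR adjusted P = 0.0259). All 27 listed members of these lists, Zp3 among them, passed an edgeR adjusted P of 0.01, 14 lower and 13 higher. So did 98.8% of all tested genes, 49.5% being lower, so the passing itself says nothing about them. With every single library left out in turn, 16 of the 27 passed. The same share over all tested genes was not taken, so the 16 cannot be read as many or few. Of the 27 members, 7 were called, against 35.7% of all tested genes.

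The 2 listed cumulus and granulosa markers went in opposite directions. Ptgs2, the prostaglandin synthase of expanding cumulus cells, had 6, 10 and 14 reads in control and 107, 74 and 59 in Ehmt2GKO, a log2 fold change of 2.98. Kitl, the ligand that granulosa cells present to the oocyte receptor Kit, was at -0.63. Any part of these cells in the level of Zp3 was not tested.

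Of the 2515 tested genes other than Zp3, 1271 had lower fitted levels and 35.6% were called in either direction. Within 500 kb of Zp3, 41 genes are annotated, 23 of them protein-coding, and 3 were listed, all with lower fitted levels and none called. The nearest, 90536 bp away, was the small heat shock protein gene Hspb1, with 229, 149 and 151 reads in control and 106, 74 and 88 in Ehmt2GKO and a log2 fold change of -0.995 (edgeR adjusted P = 0.000966), just inside 2-fold. Without control replicate 1, the highest control library, it was at -0.75. It was called without control replicate 2 (-1.11), control replicate 6 (-1.12) or Ehmt2GKO replicate 3 (-1.13), and barely past 2-fold with library size alone or with no filter. Rasa4, which encodes a GTPase-activating protein for Ras, was at -0.73, and the RNA polymerase II subunit gene Polr2j was at -0.55 with overlapping groups.

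The fall of Zp3 was recomputed under 15 processing alternatives, and it was lower in Ehmt2GKO in all 15 and called in 11. Leaving out any one library gave log2 fold changes from -1.10 to -1.03, all called.

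**Figure D5:**
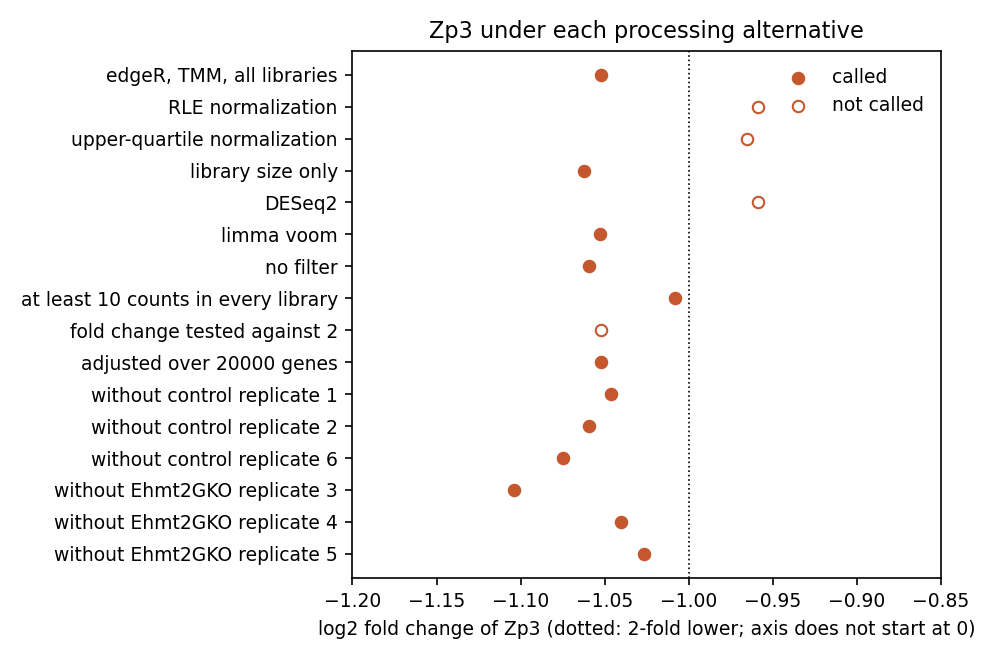
Log2 fold change of Zp3 under each processing alternative. Filled points were called (fold over 2 and adjusted P under 0.01) and open points were not, and the dotted line marks 2-fold. All values lie between -1.10 and -0.96, and the test against a 2-fold change is open although its value is unchanged at -1.05.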

How the data were processed

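Polyadenylated RNA of oocytes was amplified with the SMART-Seq v4 Ultra Low Input kit. The authors deposited one table of raw read counts per gene and library with their own fold changes and adjusted P-values, of which the deposited p-value column was read only to see that every listed gene was under 0.05. The submitters' notes name FastQC, HISAT2, DESeq2 and GRCm38 (mm10). The counting program is not given in the sources used here. Depth over all genes is unknown, since only listed genes have counts, and counting errors cover counting only. Counts were fitted with edgeR 4.0.16 in R 4.3.3 (filterByExpr, minimum count 10, TMM, quasi-likelihood F test), and P values were adjusted by Benjamini and Hochberg's method over 2516 tested genes. Levels are counts divided by median-ratio size factors of DESeq2 1.42.0, and log2 levels used a pseudocount of 0.5. All scaling factors were estimated from the listed genes alone. Median-ratio, TMM and similar scalings assume that most genes are unchanged, which genes listed for a difference do not meet. The zero point of levels and fold changes is therefore uncertain. Alternatives were DESeq2, limma 3.58.1 voom, other scalings and filters, a test against 2-fold, and each library left out. On simulated counts with 200 of 2506 tested genes changed by 1.5 log2 units, 99.5% were recovered with 1 false call. In the deposited counts 98.8% of tested genes passed an edgeR adjusted P of 0.01. Recovery with so many genes differing, or of changes near 2-fold such as that of Zp3, was not tested. Gene models came from GENCODE vM21, in which 2613 IDs matched. The members and lists were chosen with earlier results of these data known. Named genes were Zp3, listed members of 9 gene lists, the 3 neighbours in abundance on each side, the 5 nearest patterns, the 3 largest falls, the 3 smallest spreads and listed genes within 500 kb.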

Additional observations from a re-analysis of the deposited data

How the results depend on the processing

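The direction of Zp3 was the same under all 15 alternatives. Its call was lost under relative log expression scaling (-0.959), upper-quartile scaling (-0.965) and DESeq2 (-0.959), which moved the median log2 fold change of all genes upward by at most 0.094, and under the test against a 2-fold change (fold change -1.05, edgeR adjusted P = 0.405). Its adjusted P ranged from 1.70e-21 to 0.405. The test against 2-fold also lowered the genes called from 897 to 260, those called lower from 426 to 75, the called genes of similar abundance from 16 to 7 and the called list members from 7 to 1. A window of 2/3 to 1.5 times the abundance of Zp3 held 156 genes, of which 10 were called, one of 1/3 to 3 times held 455 with 24 called, and one within 2-fold per kb held 97 with 12 called. The coefficient of variation of Zp3 in control was 2.15% with TMM factors and 1.99% with library size alone, and in Ehmt2GKO 7.72% with library size alone. Chosen after seeing the data were the coefficients with a library left out, 0.0405% to 0.674% in control and 0.666% to 3.84% in Ehmt2GKO, and the exact permutation tests under the other scalings. For the 48 other named genes, 719 values held 0 reversals, 27 lost calls and 12 gained ones. The cause was not tested. No paired analysis was possible because replicates 1, 2 and 6 were all control and 3, 4 and 5 all Ehmt2GKO. Zp3 had at least 3192 reads in every library, and what depth limits for other genes was not tested.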

Other observations

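The table carries gene ontology terms, and the term for binding of sperm to the zona pellucida was attached to Zp3, Zp2, Clgn and Cct4 among the listed genes, a set chosen after the values were seen. Clgn, the testis-type chaperone calmegin of the endoplasmic reticulum, had 40, 16 and 36 reads in control and 247, 160 and 229 in Ehmt2GKO. Its log2 fold change was 2.77 (edgeR adjusted P = 6.33e-07), higher in every Ehmt2GKO library than in any control library and opposite to Zp3. Cct4, a subunit of the cytosolic chaperonin, was at -0.41.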
